A study of Mus musculus with 3 samples.

Results

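Caveolae are flask-shaped pits of the plasma membrane, and the genes described here encode their coat and the diaphragm that can close them. The list has 8 genes: Cav1, Cav2, Cavin1 (formerly Ptrf), Cavin2 (Sdpr), Cavin3 (Prkcdbp), Ehd2, Pacsin2 and Plvap. Members were all probe sets that the platform annotation gives to these genes by current or former symbol, whatever their signal. This found 16 probe sets for 7 genes, of 18193 genes with a named probe set. Pacsin2 had no named probe set and was not analysed here.

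The cells were immortalized mouse skin lymphatic endothelial cells (imLECs), sorted by FACS from H-2Kb-tsA58 mice (ImmortoMice), whose transgene drives a heat-labile large T antigen of SV40 from the H-2Kb promoter, which interferon switches on. They were grown at 33 °C in medium with 1 unit/ml of interferon-γ, then kept for 3 days at 37 °C without it, a temperature at which the T antigen is unstable. RNA came from 3 cultures, 1 each at passages 13, 14 and 18, and each was read on 1 array. All 3 form a single group in which passage is the only difference that the labels give. With 1 culture at each, passage cannot be told apart from other differences between the cultures or arrays. No culture without the transgene or kept at 33 °C was analysed here. Whether the cultures go back to separate mice or isolations is not given in the sources used here, so their spread may be technical.

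Caveolins insert into the inner leaflet of the membrane as oligomers, and cytosolic cavins assemble on them into the coat that bends the membrane. Ehd2, an ATPase, sits at the neck and holds the pit at the surface, and Pacsin2 is a membrane-curving F-BAR protein. Plvap is the structural protein of the thin diaphragms across caveolae, transendothelial channels and fenestrae. Endothelium is rich in caveolae, which buffer membrane tension and take part in transport across the cell. Plvap is the antigen of the MECA-32 antibody, widely used to mark blood vessels in the mouse, and it is also made by sinus lymphatic endothelium of lymph nodes.

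Signals are given as log2 intensity, with the linear intensity units of the deposited table where each culture is first listed. As the floor of an array served the 95th percentile of 43 genes restricted to other tissues. It came to log2 5.60, 5.69 and 6.07 at passages 13, 14 and 18. Genes that exceeded it in each of the 3 cultures are called detected. Median intensities of the arrays were 25.7, 26.0 and 26.3. The passage 18 array stood apart in RNA quality, read as the Gapdh 3′/5′ control ratio: 19.4, against 8.59 at passage 13 and 7.10 at passage 14. The same ratio of Actb was 1.18, 1.20 and 1.42 at passages 13, 14 and 18. All 8 shared endothelial markers were detected, among them Cdh5 and Pecam1. So were 6 of 10 lymphatic markers, namely Lyve1, Pdpn, Flt4, Nrp2, Sox18 and Foxc2. Of the remaining lymphatic markers, Prox1 was above the floor at passage 13 alone (6.20, 5.11 and 5.60 at passages 13, 14 and 18). Mmrn1, Reln and Itga9 were below it throughout.

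All 7 measured members were detected, where 47.7% of all genes were. Of their 16 probe sets, 13 were above the floor on every array and 3 were below it on every array, 1 of Cavin1 and 2 of Ehd2. The 6 coat and neck genes had a range of 0.11 to 0.65 log2 units over the cultures by the brightest probe set of each, with a median of 0.20. Dimmer probe sets gave wider ranges for some, up to 0.84 for Ehd2 and 0.57 for Cavin2. The Ehd2 probe set with that range lay just above the floor at passage 18, at log2 6.10 against 6.07. The median range of all 8669 detected genes, bright and dim together, was 0.45. Members were not ranked among genes of like signal. Plvap had a range of 1.41, larger than that of 94.3% of detected genes.

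**Figure D1:**
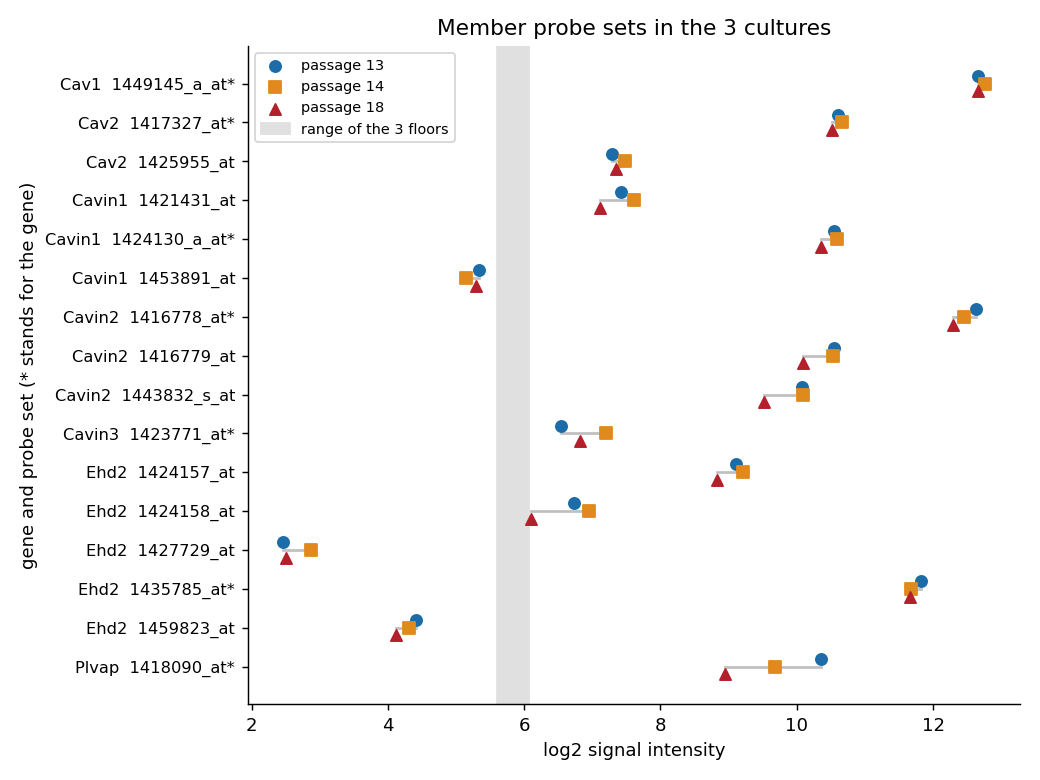
Log2 signal intensity (horizontal axis) of the 16 probe sets of the 7 measured members (rows) in the cultures of passage 13 (circle), 14 (square) and 18 (triangle), each a single array. The grey band spans the floors of 5.60 to 6.07, and 3 rows lie below it. The Plvap row is the widest, from 10.36 down to 8.95, whereas the 3 symbols of Cav1 lie within 0.11.

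Cav1 encodes caveolin-1, without which endothelium forms no caveolae. Its probe set read 6502, 6978 and 6444 intensity units at passages 13, 14 and 18. The values lay close together, with the passage 14 culture highest and passages 13 and 18 almost equal. On the log2 scale the level was 12.70 ± 0.06 (SD, n = 3), and passage 18 differed from passage 13 by -0.01, or 1.01-fold. Of all detected genes, whatever their signal, 6.02% had a smaller range than Cav1.

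Cav2 encodes caveolin-2, which needs caveolin-1 to leave the Golgi and joins its oligomers. Its brighter probe set read 1554, 1622 and 1472 at passages 13, 14 and 18, or 10.60 ± 0.07 (SD, n = 3). The dimmer one read 156, 178.5 and 162.8. Both were highest at passage 14, but they placed the other cultures differently: passage 18 minus passage 13 was -0.08 in the brighter and 0.06 in the dimmer. Neither probe set showed a difference beyond 0.19 log2 units between any cultures.

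Cav2 and Cav1 are neighbours on chromosome 6 (GRCm38.p6, chr6:17281185-17289130 and chr6:17306335-17341328), separated by 17204 bases, and their leading probe sets had the same order over the cultures, 14 above 13 above 18. The sequences below are the 250 bases just upstream of the annotated starts of both caveolin genes and of the main endothelial cavins, Cavin1 and Cavin2, from RefSeq (GRCm38.p6). They are shown because these 4 genes carry the coat. Cav1 and Cavin1 have 2 windows each in the table, and the one at the gene's outer start is given. Positions are chr6:17306085-17306334 (+ strand) for Cav1, chr6:17280935-17281184 (+) for Cav2, chr11:100970618-100970867 (- strand) for Cavin1 and chr1:51288876-51289125 (+) for Cavin2. Capitals mark matches, on either strand, to the letters named after the sequences; no marked matches overlap.
Cav1: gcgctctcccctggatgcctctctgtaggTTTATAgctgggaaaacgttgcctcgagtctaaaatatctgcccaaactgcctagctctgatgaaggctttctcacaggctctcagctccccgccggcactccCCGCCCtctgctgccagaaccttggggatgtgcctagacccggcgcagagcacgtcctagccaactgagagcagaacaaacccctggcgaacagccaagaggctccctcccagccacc
Cav2: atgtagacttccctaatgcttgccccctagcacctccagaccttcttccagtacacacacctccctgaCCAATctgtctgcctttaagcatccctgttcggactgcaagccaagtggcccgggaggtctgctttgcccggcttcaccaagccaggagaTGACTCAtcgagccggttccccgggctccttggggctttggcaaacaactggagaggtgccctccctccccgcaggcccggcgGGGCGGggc
Cavin1: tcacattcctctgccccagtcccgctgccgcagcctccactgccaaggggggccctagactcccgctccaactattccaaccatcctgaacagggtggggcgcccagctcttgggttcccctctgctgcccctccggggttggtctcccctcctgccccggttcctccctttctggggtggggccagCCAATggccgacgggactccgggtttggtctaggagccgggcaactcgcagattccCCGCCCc
Cavin2: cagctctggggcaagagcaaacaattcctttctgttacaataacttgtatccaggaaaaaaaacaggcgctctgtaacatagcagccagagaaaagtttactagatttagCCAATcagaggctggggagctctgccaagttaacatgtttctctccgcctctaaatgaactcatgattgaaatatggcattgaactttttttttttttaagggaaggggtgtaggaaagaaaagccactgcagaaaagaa

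The GC box, searched as GGGCGG, lay upstream of Cav1, Cav2 and Cavin1 with 1 match each, and none was found upstream of Cavin2. It occurs in 32.7% of the 32851 upstream windows of this length in the table. The CCAAT box, searched by those letters, had 1 match each in Cav2, Cavin1 and Cavin2, and 33.8% of windows hold it. The AP-1 sequence TGACTCA upstream of Cav2 is in 4.46% of windows. The TATA box, searched as TATAAA, had 1 match upstream of Cav1 and is in 12.4% of windows. That match is on the reverse strand, near the end of the window farthest from the annotated start. The FOXO sequence GTAAACA, present in 3.17% of windows, had no match in the 4 sequences. The ETS sequence CCGGAAG, in 6.91% of windows, had none either. The Cavin2 window was the poorest in G and C, at 40.4% with 2 CpG sites, against 67.6% and 12 for Cavin1 and medians of 52.4% and 6 over all windows. Cav1 and Cav2 had 59.6% and 62.0% with 10 CpG sites each. These matches describe letters only and show no binding.

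Cavin1 (cavin-1) is the cavin that every caveola needs, and its gene lies at chr11:100956736-100970617. The brightest of its probe sets gave 1502, 1544 and 1313 at passages 13, 14 and 18, or 10.50 ± 0.13 (SD, n = 3). The second read 170.9, 196.3 and 139.1. Both gave the same order, with passage 14 highest and passage 18 lowest, and passage 18 minus passage 13 was -0.19 in the first and -0.30 in the second. The third, below the floor, gives only an upper limit. For Cavin1 20.3% of detected genes had a smaller range.

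Cavin2 (cavin-2) binds phosphatidylserine, and endothelial caveolae of several tissues depend on it; its gene lies at chr1:51289126-51302960. The brightest of its probe sets gave 6360, 5622 and 5017 at passages 13, 14 and 18. This was 12.46 ± 0.17 on the log2 scale (SD, n = 3). The next read 1489, 1479 and 1097, and the last 1075, 1087 and 733.6. All 3 were lowest at passage 18. They disagreed about passage 14, which lay between the others in the first and level with passage 13 in the remaining ones. Passage 18 minus passage 13 was -0.34, -0.44 and -0.55 in the same order. This made Cavin2, at 1.27-fold lower by its brightest probe set, the coat gene with the largest difference between those cultures.

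Cavin3 (cavin-3) binds protein kinase C delta, and its gene lies at chr7:105480616-105482197. Its probe set read 93.5, 146.9 and 113.5 at passages 13, 14 and 18, where the floors were 48.5, 51.7 and 67.0. Passage 14 was highest, 1.57-fold above passage 13. Unlike the other 6 genes, Cavin3 was lowest at passage 13. Its level was 6.86 ± 0.33 (SD, n = 3), and 69.7% of detected genes had a smaller range.

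Ehd2, the neck ATPase (chr7:15946963-15967535), had 5 probe sets. The brightest read 3638, 3259 and 3235 at passages 13, 14 and 18, or 11.72 ± 0.09 (SD, n = 3), with passages 14 and 18 almost equal below passage 13. The next read 553.1, 592.6 and 455.1, and 106.6, 123.2 and 68.8. Both of these were highest at passage 14 and lowest at passage 18. Passage 18 minus passage 13 was -0.17, -0.28 and -0.63 from brightest to dimmest, so the size of the difference depended on the probe set. At passage 18 the dimmest of these lay just above the floor, at 68.8 against 67.0. With the median over its probe sets in place of the brightest, Ehd2 changed direction between passages 14 and 13, from -0.16 to 0.21. Passage 18 then differed from passage 13 by -0.63 and from passage 14 by -0.84. On every array that median was the value of the dimmest probe set above the floor. The remaining 2 probe sets were below the floor on every array.

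Probe sets of a gene share the RNA and show agreement of measurement, not replication. Over the 13 above the floor, 11 were lowest at passage 18 and 13 were lower at passage 18 than at passage 14. In Cavin1, Cavin2 and Ehd2 the dimmer probe sets showed the larger deficit at passage 18, where the dimmest of Ehd2 lay just above the floor. In Cav2 they did not: passage 18 minus passage 13 was -0.08 in the brighter and 0.06 in the dimmer. By gene, 6 of 7 members were lowest at passage 18 (37.0% of detected genes were), 6 of 7 were lower at 18 than at 13 (50.2%), 7 of 7 were lower at 18 than at 14 (47.7%) and 4 of 7 were highest at 14 (35.6%). The Gapdh 3′/5′ ratio of the passage 18 array was 19.4 and that of Actb 1.42; the part of RNA quality in these differences was not tested.

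Of the members, Plvap (chr8:71497753-71511806) differed most between the cultures. Its single probe set read 1315, 823.2 and 495.6 at passages 13, 14 and 18, that is 10.36, 9.69 and 8.95 on the log2 scale or 9.67 ± 0.70 (SD, n = 3). Each later passage was lower, and all values stayed far above the floor. A fall at each step was not particular to Plvap, as 1040 of the 8669 detected genes showed it. By brightest probe set Cavin2 and Ehd2 did too, with a difference of -0.01 in Ehd2 from passage 14 to 18. The other members were highest at passage 14. In Plvap passage 14 was 1.60-fold below passage 13, and passage 18 was 1.66-fold below passage 14. The whole step from 13 to 18 was 2.65-fold. Only 0.542% of detected genes had a lower value of passage 18 minus passage 13. Plvap thus was the only member at least 2-fold apart between any cultures. The share of detected genes past that fold was 3.96% for passage 18 against 13 (1.78% lower, 2.18% higher), where 1 of 7 members was. It was 4.8% for 14 against 13 and 11.4% for 18 against 14 (6.55% higher), where 0 of 7 members were. At 1.5-fold the shares were 14.5%, 16.1% and 29.0% for 18 against 13, 14 against 13 and 18 against 14, where 1, 2 and 1 of 7 members were. With 1 culture per passage these are counts and no test. In such bulk RNA, fewer Plvap-expressing cells and less Plvap RNA per cell cannot be told apart.

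The 8 endothelial markers were also lower at passage 18 than at 13, 8 of 8, where 50.2% of all detected genes were. Their summed intensity was 9359, 9583 and 5592 at passages 13, 14 and 18, and passage 18 minus passage 13 had a median of -0.76. The largest of these differences was -1.22, in Egfl7, against -1.41 in Plvap. At passage 14, 6 of the 8 were higher than at passage 13 (median 0.15), where 51.7% of all detected genes were lower. The lower markers, Erg and Tek, differed by -0.40 and -0.44, against -0.68 in Plvap. The difference between Plvap and these genes was not tested. Of 8 blood endothelial markers, 5 were below the floor on every array (Vwf, Dll4, Gja5, Sox17 and Ackr1). Passage 18 minus passage 13 was -0.42 and -0.23 in the detected Flt1 and Selp and 0.80 in Efnb2, and the list summed to 2282, 2259 and 3344. Of the 6 detected lymphatic markers, 5 had a lower level at passage 18 than at 13. Their median difference was -1.03, and the list summed to 10607, 9198 and 6645. Lyve1, a hyaluronan receptor, differed by -3.08, more than Plvap, and Foxc2 by 0.29. The part of endothelial and lymphatic marker level and of RNA quality (ratios of 19.4 for Gapdh and 1.42 for Actb at passage 18) in the Plvap difference was not tested.

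**Figure D2:**
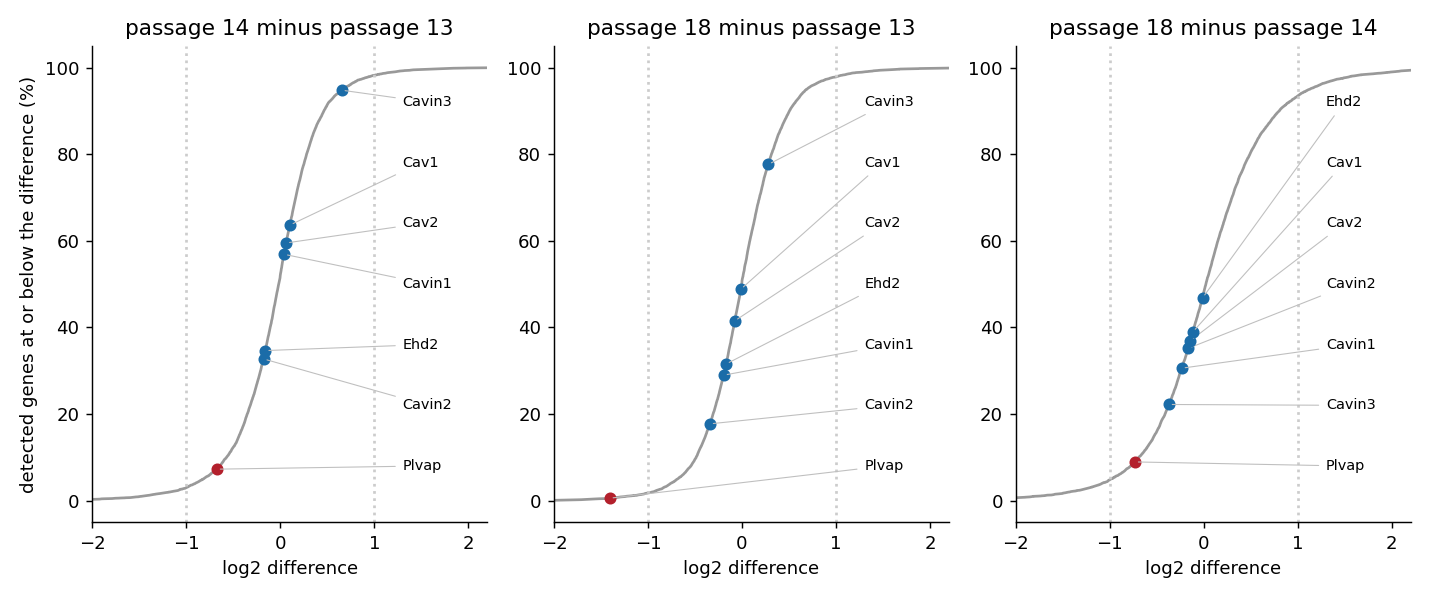
Log2 differences (horizontal axis) between pairs of cultures, with the share of the 8669 detected genes at or below each difference (vertical axis, %) as a grey curve and the 7 measured members as points, Plvap in red. Dotted lines mark 2-fold; Plvap lies beyond it in the middle panel alone, at -1.41, and the other 6 members lie between -0.37 and 0.65 in all panels, which share cultures.

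Caveolin and cavin genes are also active in fibroblasts, smooth muscle, fat and striated muscle. Fibroblast markers (5 of 9 detected) summed to 3880, 2475 and 5553 intensity units at passages 13, 14 and 18, with Pdgfra, Dcn and Lum below the floor. Col1a2 was above it at passages 13 and 18 alone (6.65, 3.99 and 8.31 at passages 13, 14 and 18). Mural and smooth muscle markers (3 of 8 detected) summed to 6195, 1095 and 7375, with Myh11, Cnn1, Des, Rgs5 and Cspg4 below the floor. Both sums were highest at passage 18 and lowest at passage 14, but single markers differed. Against passage 13, passage 18 was higher in Col1a1, Col3a1, Mmp2, Acta2 and Pdgfrb (differences of 2.22, 1.97, 1.28, 1.85 and 1.41) and lower in Thy1, Fbln1 and Tagln (-0.53, -0.89 and -1.37). Whether such cells were present was not tested, nor was any part of theirs in the coat genes' levels. Of the adipocyte markers 0 of 5 were detected on all arrays (summed 169.9, 284.2 and 120.2), with Adipoq, Lep and Cidec below the floor throughout, Lpl above it at passage 14 alone (7.18) and Pparg above it at passages 13 and 14 (6.58 and 6.74). Of the striated muscle markers 0 of 5 were detected, and Mylpf alone was above the floor on any array, at passages 13 and 14 (summed 174.3, 150.3 and 129.5). Keratinocyte markers (1 of 5 detected, with Krt14, Cdh1 and Epcam below the floor) summed to 224.5, 171.3 and 207.2. Leukocyte markers (0 of 7 detected on all arrays) summed to 540.9, 506.3 and 248.3. Ptprc, Cd3e and Cd79a were below the floor throughout. Cd53 (7.93, 6.92 and 6.01 at passages 13, 14 and 18), Cd68 (6.99, 7.93 and 5.86) and Lyz2 were above it at passages 13 and 14, and Coro1a at passage 13.

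A slope over passage number was estimated with limma for all 9379 genes bright enough to test. In 6 of 7 members the slope was negative, where the median slope over all detected genes was 0.0004 log2 units per passage. The share of all genes with a negative slope was not counted. Of the members' negative signs, 3 rest on passage 18: without it Cav1, Cav2 and Cavin1 gave slopes of 0.10, 0.06 and 0.04. For Plvap it was -0.25 log2 units per passage, with a standard error of 0.07 and a 95% confidence interval of -0.45 to -0.05 (limma, unadjusted p = 0.0255, Benjamini-Hochberg adjusted p = 0.886; lower at each later passage in the 3 cultures). Without the passage 18 culture it was -0.68, without passage 14 it was -0.28 and without passage 13 it was -0.18. The intervals of the other 6 members included 0, from a slope of -0.06 for Cavin2 (95% interval -0.16 to 0.04) to 0.01 for Cavin3 (-0.25 to 0.28). In the limma test 0 of 7 members passed after adjustment and 1 of 7, Plvap, had an unadjusted p under 0.05. Over all genes the same fit called 0.0%, with 3.43% at an unadjusted p under 0.05. With 3 cultures the model has 1 residual degree of freedom, so it says little about which genes kept their level, and it made no calls on simulated data either, at any slope tried.

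**Figure D3:**
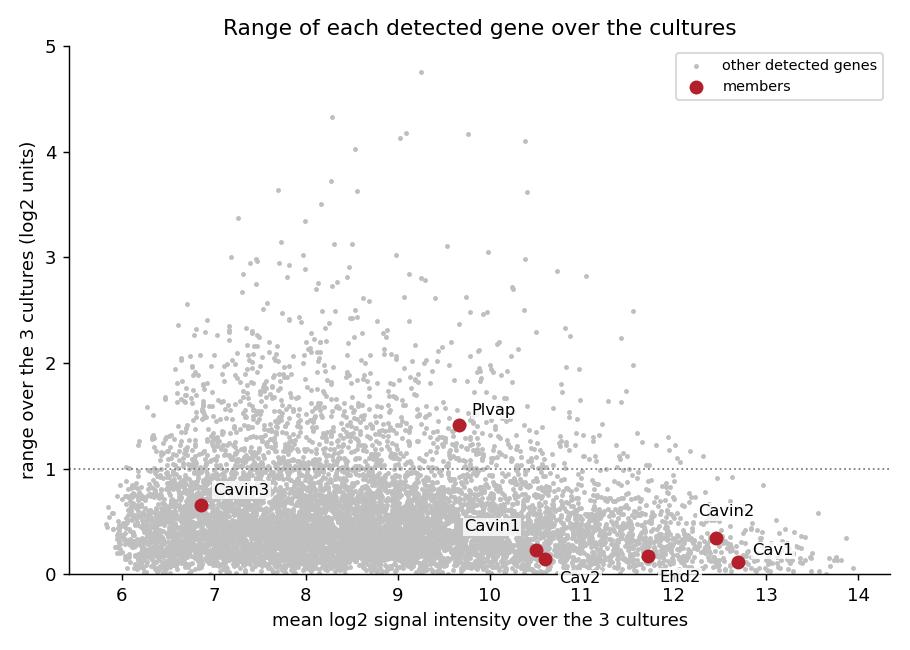
Range over the 3 cultures in log2 units (vertical axis) against mean log2 signal intensity (horizontal axis) for each detected gene (grey) and the 7 measured members (red); the dotted line marks a range of 1, or 2-fold. Plvap stands at 1.41, Cavin3 at 0.65 and the other members at 0.34 or less.

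The genes around the caveola were read from 5 lists with 61 genes, of which 59 had a named probe set and 41 were detected. In limma 0 of the 41 passed the passage trend after adjustment and 2 had an unadjusted p under 0.05. At passage 14, 2 of 41 were at least 2-fold higher and 2 at least 2-fold lower than at passage 13, where 1.81% and 2.99% of detected genes were. At passage 18 it was 1 higher and 5 lower than at 13, where 2.18% and 1.78% were. At passage 18 against 14 it was 4 higher and 5 lower, where 6.55% and 4.8% were.

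Among the relatives and partners of the coat, 9 of 13 were detected. The muscle forms Cav3 and Cavin4 and the neuronal Pacsin1 were below the floor on every array, and the receptor tyrosine kinase-like Ror1 was above it at passage 18 alone. Ehd1, a paralogue of Ehd2 that works in endocytic recycling, was at 12.29, 12.23 and 12.46 at passages 13, 14 and 18. Dnm2, the GTPase that severs membrane necks, was at 10.74, 10.77 and 10.42. The paralogues Ehd4 and Ehd3 varied more. Ehd4 was at 11.47, 11.54 and 10.47, 2.01-fold lower at passage 18 than at 13, and Ehd3 at 7.86, 6.31 and 7.85, 2.94-fold lower at passage 14 than at 13. Against passage 13 the list's median was -0.37 at passage 14 and -0.005 at passage 18. The medians over the 7 caveolar members were 0.04 and -0.17, and over all detected genes -0.02 and -0.002.

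Among receptors, channels and transporters that caveolae are known to hold, 10 of 15 were detected. Slc7a1, an arginine transporter, was at 11.08, 10.81 and 11.38, and Bmpr2, a BMP receptor, at 10.51, 10.22 and 10.96. Kdr, the main VEGF receptor of endothelium, was at 9.58, 10.69 and 9.29, 2.16-fold higher at passage 14 than at 13. Tgfbr1, the type I TGF-β receptor, was at 8.42, 8.05 and 9.06. Nos3, the endothelial nitric oxide synthase that caveolin-1 restrains, exceeded the floor in the earlier cultures and lay under it at passage 18 (6.04, 7.32 and 4.53). Aqp1, a water channel, was above it at passages 13 and 18. Cd36, Trpv4 and Atp2b4 were below it throughout. Against passage 13 the list's median was -0.22 at passage 14 and 0.26 at passage 18.

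Flotillins mark membrane microdomains apart from caveolae. Of the flotillin and raft list 4 of 7 genes were detected, with Pag1, Mal and Mal2 below the floor. Flot1 was at 9.57, 9.06 and 9.29, and Flot2 at 9.42, 9.19 and 9.15. Stoml2, a mitochondrial member of the stomatin family, was at 8.48, 9.14 and 8.12, and Stom itself at 7.77, 7.50 and 8.20. None of the 4 was 2-fold apart from passage 13 at passage 14 or 18, where 4.8% and 3.96% of detected genes were. Stoml2 was 2.03-fold lower at passage 18 than at 14, where 4.8% of detected genes were at least 2-fold lower. The list's medians against passage 13 were -0.25 at passage 14 and -0.28 at passage 18.

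The clathrin route, the other main entry path, had 12 of 13 measured genes detected, and Epn1 was above the floor at 2 of 3 passages. Clta and Cltc, a light and the heavy chain of clathrin, were at 12.90, 12.84 and 12.98, and at 11.02, 11.10 and 10.77. Ap2m1, the cargo-binding subunit of the AP-2 adaptor, was at 11.47, 11.40 and 11.66. The small AP-2 subunit Ap2s1 was 3.00-fold lower and the light chain Cltb 2.03-fold lower at passage 18 than at 13 (8.90, 8.76 and 7.31, and 10.35, 9.50 and 9.33). Against passage 13 the list's median was -0.06 at passage 14 and -0.22 at passage 18.

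Of 11 measured genes of endothelial transport and fenestra formation, 6 were detected. Mfsd2a, a lipid transporter that restrains caveolar transcytosis in brain endothelium, was below the floor, as were Gpihbp1, Stab2 and Vegfa, and Lrp1 was above it at 2 of 3 passages. Nrp1, a co-receptor of VEGF, was at 10.16, 9.38 and 11.20, 2.06-fold higher at passage 18 than at 13. Tfrc, the transferrin receptor, was at 9.37, 10.93 and 9.20, 2.93-fold higher at passage 14 than at 13, and Vldlr, a lipoprotein receptor, was at 8.47, 8.77 and 8.95. Esm1, a proteoglycan of activated endothelium, was at 8.67, 6.90 and 7.58, 3.40-fold lower at passage 14 and 2.13-fold lower at passage 18 than at 13. Stab1, a scavenger receptor named after its values were seen because it completes the count, was 2.54-fold lower at passage 18 than at 13. The list's medians against passage 13 were -0.82 and 0.05 at passages 14 and 18.

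**Figure D4:**
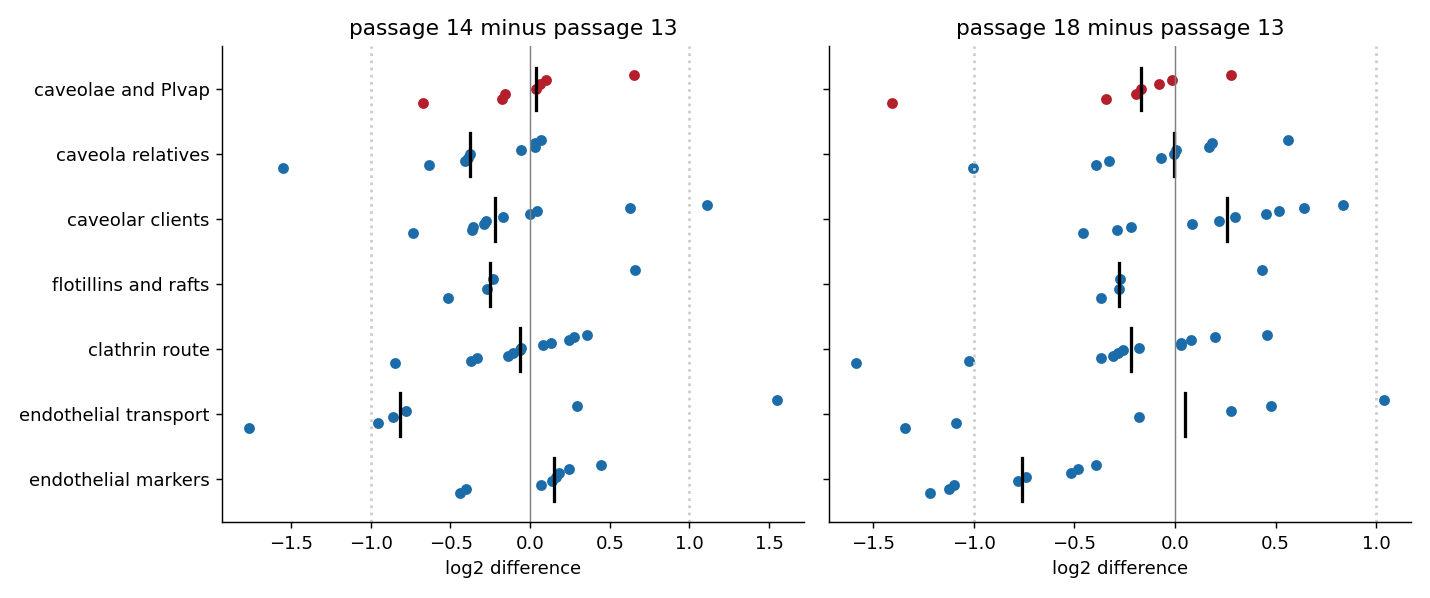
Log2 difference of passage 14 (left) and passage 18 (right) from passage 13 (horizontal axis) for each detected gene of the caveolar list with Plvap (red), the 5 related lists and the endothelial markers (blue), by list on the vertical axis; black bars are list medians and dotted lines mark 2-fold. Plvap is the leftmost red point in both panels, and all 8 endothelial markers lie left of 0 at passage 18; both panels share the passage 13 culture.

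Likeness of pattern was measured as the largest deviation between centred log2 values over the 3 cultures, among 8662 other detected genes, for the 2 members with the largest range. Nearest to Plvap were Olfm1 (9.84, 9.23 and 8.58 at passages 13, 14 and 18; deviation 0.08), the phosphatase gene Dusp14 (8.67, 7.97 and 7.37; 0.08) and the membrane protein gene Cmtm6 (8.26, 7.74 and 6.97; 0.09). Nearest to Cavin3 were the laminin chain gene Lamc1 (9.93, 10.60 and 10.23; 0.007), the cyclin-dependent kinase gene Cdk2 (6.77, 7.44 and 7.03; 0.02) and Sinhcaf (8.24, 8.92 and 8.52; 0.02). With only 3 cultures many genes come close by this measure: 540 lay within 0.2 of Cavin3, and 13 within 0.2 of Plvap.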

How the data were processed

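Per the labels' protocols, RNA was isolated from the 3 cultures side by side, and its amplified cDNA carried a biotin label. The authors deposited linear signal intensity values, 1 for each probe set in each culture. MAS5 is named in the submitters' processing notes, without its version or settings. The arrays shared their scale (95th percentiles 1367, 1363 and 1365) and were not normalized again. The 45101 probe sets were named through the platform annotation, of which 34945 had 1 gene, and updated to RefSeq symbols (GRCm38.p6, used for names, gene positions and upstream sequences). For each gene the probe set of highest mean log2 intensity was used. The floor came from 43 measured of 46 listed genes restricted to other tissues, of which 2 (Apoa2 and Prm1) were themselves called detected, and 2, Ckm and Myh4, are also striated muscle markers. A value below it is only an upper limit.

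The trend over passage number came from limma 3.58.1 under R 4.3.3 (lmFit, eBayes with an intensity trend, Benjamini-Hochberg adjustment at 0.05) on genes whose mean exceeded the mean floor, and was run on simulated data, where it called none of the changed genes, so a lack of calls carries no information. Precision is limited by the number of arrays. The limma p-values rest on the deviation of 3 cultures from a line, with 1 residual degree of freedom per gene. Another 2.66 prior degrees of freedom are drawn from all tested genes. They do not measure the spread between cultures of the same passage. Members and lists were chosen with earlier results of these data known. Named genes were all members, and per related list the 3 detected genes of highest mean, the 2 of largest range and the undetected ones. Alternatives were other floors, normalizations, probe set rules, an offset of 16, no filter, no intensity trend, another coding of passage, a 1.5-fold limit and leaving out each culture.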

Additional observations from a re-analysis of the deposited data

How the results depend on the processing

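No paired analysis was possible because the 3 cultures form 1 group with 1 culture per passage. With a limit of 1.5-fold in place of 2-fold, 2 members passed between passages 14 and 13 (Plvap and Cavin3) and 1 between 18 and 14 (Plvap), where 16.1% and 29.0% of detected genes did. Leaving out each culture in turn gave slopes from -0.0287 to 0.102 for Cav1, -0.035 to 0.0618 for Cav2, -0.0585 to 0.0398 for Cavin1 and -0.093 to 0.652 for Cavin3, so none of these has a settled direction. Cavin3 also changed sign, to -0.0462, when passage 18 was set against the mean of passages 13 and 14. On the passage scale the Plvap slope was -0.254 with quantile normalization, -0.256 with median centring and -0.248 with the offset, against -0.253. The remaining ones of the 7 alternatives could not change this slope. Plvap has 1 probe set, and the filter and the intensity trend do not enter a slope. The limma adjusted p of Plvap was 0.884 to 0.945 over the 7 and 0.616 with the other coding of passage. With the floor at the 99th percentile 6 of 7 members were detected, without Cavin3. Taking the median over probe sets in place of the brightest turned Ehd2 at passage 14 against 13 from -0.16 to 0.21, and moved it to -0.63 for 18 against 13, to -0.84 for 18 against 14 and to a slope of -0.15. In all 3 cultures the median for Ehd2 was the value of its dimmest probe set above the floor. That probe set read 106.6, 123.2 and 68.8 at passages 13, 14 and 18, where the floor at passage 18 was 67.0. Of 182 alternative slopes and differences, 6 changed sign, namely 5 slopes of Cav1, Cav2, Cavin1 and Cavin3 and the Ehd2 difference. Part of the 182 could not change, so this count is no measure of stability. The filter and the intensity trend do not enter a slope, and dropping _s_at and _x_at probe sets left each member's brightest one in place. For Cav1, Cavin3 and Plvap, with 1 probe set each, the median rule changes nothing. Precision is limited by 1 array per passage, and below-floor signals are upper limits.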
